A study of Mus musculus musculus x Mus musculus castaneus with 8 samples.

Results

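The metalloproteases of the pericellular space and their inhibitors were described in cultured mouse tail fibroblasts: the ADAM, ADAMTS, ADAMTS-like and MMP genes and the TIMP genes. They were picked by gene symbol, as every gene of the composite count table whose symbol starts with Adam, Adamts, Adamtsl, Mmp or Timp followed by a digit. This set was chosen with earlier results of these data known. This gave 84 of 24421 genes: 33 ADAM, 19 ADAMTS, 5 ADAMTSL, 23 MMP and 4 TIMP genes. Of these, 49 had at least 20 reads summed over the 8 libraries and are described: 14 ADAM, 14 ADAMTS, 4 ADAMTSL, 14 MMP and 3 TIMP genes. Mmp25, with 21 reads, lay just inside this limit and Mmp10, with 17 reads, just outside. No read was assigned to 15 members, 12 of them ADAM and 3 of them MMP genes, and 20 had between 1 and 19 reads.

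All libraries came from cells of 1 kind, tail fibroblasts of female F1 hybrids between Mus musculus musculus (mus) and Mus musculus castaneus (cas), so that part of the reads can be assigned to a parental allele. The cells were plated on 15 cm dishes and lysed in Trizol after 72 h of growth. Drugs were added 24 h after plating, with the volume of the solvent DMSO held equal in all dishes. The 4 groups of 2 libraries were untreated cells (DMSO only), cells given 5azadC (decitabine, a cytidine analogue that traps DNA methyltransferases), cells given VX680 (tozasertib, an inhibitor of the Aurora mitotic kinases) and cells given 5azadC+VX680. The labels give no doses, and they do not say whether the 2 libraries of a group came from separate animals or separate dishes, so the spread behind each p-value is that of the libraries at hand and may be technical. The series addresses whether DNA methylation and Aurora kinase inhibitors act together to reactivate the X chromosome. Here the same libraries were read for matrix proteolysis.

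As background, MMPs and ADAMTS proteases cut collagens, proteoglycans and other proteins of the matrix outside the cell, and most ADAMs are membrane proteins that shed the outer parts of growth factors, receptors and adhesion molecules. In the members that are active proteases the site of the cut binds a zinc ion through 3 histidines, and a glutamate next to the first of these histidines takes part in the cut. ADAMTS-like proteins share the outer modules of ADAMTS proteases and lack the protease domain. TIMPs are small secreted proteins that plug the active site of these enzymes. Fibroblasts are a main source of MMP14, MMP2 and TIMP2, which act together at the cell surface, where MMP14 and TIMP2 convert the MMP2 precursor to its active form.

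The zinc site was read from the coding sequence of each described gene (GENCODE M21, build GRCm38, longest coding transcript) to show which members can be proteases at all. It was searched as 33 coding bases, on the coding strand and in frame, that hold the 3 histidine codons and the glutamate codon at their fixed spacing. All 49 described genes were matched to a coding transcript, and 37 held the site: 9 of 14 ADAM genes, 14 of 14 ADAMTS genes and 14 of 14 MMP genes. None of the 4 ADAMTSL and none of the 3 TIMP genes held it, nor did Adam4, Adam5, Adam11, Adam22 and Adam32. In each sequence below the capitals mark the histidine and glutamate codons, the second histidine codon and the last histidine codon, and the sequences are given 5′ to 3′ on the coding strand. They are those of the 8 genes on which the results below turn most.
Adamts17: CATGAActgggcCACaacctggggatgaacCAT
Adamts1: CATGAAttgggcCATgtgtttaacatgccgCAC
Adamts12: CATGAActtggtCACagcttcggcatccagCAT
Adamts14: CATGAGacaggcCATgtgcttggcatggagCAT
Adam8: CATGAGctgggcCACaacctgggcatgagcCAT
Mmp14: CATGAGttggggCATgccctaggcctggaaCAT
Mmp2: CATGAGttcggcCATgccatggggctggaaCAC
Mmp13: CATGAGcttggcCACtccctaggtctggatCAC

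In GRCm38 the site lay within 1 exon in all 14 MMP genes, for instance at chr14:54437627-54437659 in exon 5 of Mmp14, at chr8:92839279-92839311 in exon 8 of Mmp2 and at chr9:7276573-7276605 in exon 5 of Mmp13, all on the plus strand. In Adam8 it lay at chr7:139987893-139987925 in exon 11, on the minus strand. An intron split the site in all 14 ADAMTS genes and, among ADAM genes, in Adam10 only. In Adamts17 the 33 bases therefore stretched over chr7:66968898-67002473 on the plus strand, and in Adamts1 over chr16:85799191-85799545 on the minus strand. Adamts1, Adamts4, Adamts9 and Adamts20 had another codon where the other 33 genes with a site have a glycine codon between the second and the last histidine. These 4 genes are, with Adamts5, the described proteoglycan-cleaving members of the family in the grouping used below. Adamts8 and Adamts15, of the same group, had 3 and 4 reads in all, and their site was not read.

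The libraries held 6908503 to 11169532 reads in genes. The 84 members took up 0.645% and 0.667% of the reads of the untreated libraries, 0.466% and 0.545% with 5azadC, 0.491% and 0.466% with VX680, and 0.361% and 0.347% with 5azadC+VX680. The replicates of 5azadC differed more than those of the other groups, with a chi-square per degree of freedom of 19.9 over all genes against 7.5 in untreated cells, 3.02 with VX680 and 2.74 with both drugs. Of the fibroblast markers, 14 of 14 had reads in every group, and their summed level was 36740 to 41500 CPM (reads scaled to a common library size) in untreated libraries, 23880 to 27800 with 5azadC, 18730 to 19000 with VX680 and 15640 to 16230 with both. Of 13 fibroblast markers tested, 7, 8 and 9 fell and 2, 3 and 3 rose with 5azadC, VX680 and both. Of all genes tested, 19.6%, 22.4% and 27.3% fell and 22.6%, 23.8% and 28.4% rose in the same comparisons. The 14 leukocyte markers in the table summed to between 20.9 and 32.6 CPM in all libraries, with Adgre1, Cd3e, S100a9 and Aif1 at 0 reads, and the 10 keratinocyte markers to between 1.36 and 5.76 CPM. Endothelial markers summed to 127 to 143 CPM in untreated libraries and 176 to 233 CPM in treated ones, with Emcn at 0 reads. Smooth muscle and pericyte markers summed to 1217 to 1343 CPM in untreated libraries, 1873 to 2292 with 5azadC, 1717 to 1758 with VX680 and 1406 to 1410 with both, and 6, 8 and 4 of 8 rose. The part of these marker changes in the results below was not tested, and in bulk RNA fewer cells of a type cannot be told apart from less RNA per cell.

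In untreated cells a few members carried most of the signal. Per kilobase of gene length (RPKM, mean ± SD of 2 libraries), Mmp14 led with 483 ± 41.5, followed by Timp2 with 328 ± 39. Adamts1, at 153 ± 3.24, and Mmp2, at 135 ± 2.84, came next, and Mmp11, at 92.2 ± 5.77, followed. Adamts5 and Timp3 had nearly the same level, 46.6 ± 1.7 and 46.5 ± 3.75, and did not differ beyond their spread, and neither did Adam9, at 37 ± 0.786, and Adam10, at 36.6 ± 1.06. Adam15 was the ADAM with the highest level per length, at 51.1 ± 2.94. At the low end were the collagenase Mmp13, at 1.07 ± 0.119, the gelatinase Mmp9, at 0.441 ± 0.229, and Adam8, at 0.676 ± 0.0827. By share of reads, Mmp14 made up 61.7% of all MMP reads, Timp2 83.2% of all TIMP reads and Adamts1 37.5% of all ADAMTS reads.

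Each drug, and the pair, lowered more of these genes than it raised. Fold changes are log2 values from edgeR on the raw counts, with their standard error (SE), and a gene is said to have risen or fallen where its p-value, adjusted by Benjamini-Hochberg over all 12643 genes tested, was under 0.05. Each gene had 1 estimate of spread, shared by all 4 groups. The SE and p-value of a 5azadC comparison thus do not measure the spread of the 5azadC libraries alone. Over all genes those libraries differed more from each other than the replicates of the other groups. A filter on low counts left 45 of the 49 described members for testing, with Adam4, Adam32, Mmp24 and Mmp25 left out. With 5azadC 27 of 45 fell and 6 rose, where 19.6% of all genes tested fell and 22.6% rose. With VX680 also 27 fell and 6 rose, where 22.4% of all genes fell and 23.8% rose. With 5azadC+VX680 31 fell and 5 rose, where 27.3% of all genes fell and 28.4% rose. The falls thus took up 60%, 60% and 68.9% of the members tested, and the rises 13.3%, 13.3% and 11.1%. The median log2 change of the members was -0.68 with 5azadC, -0.77 with VX680 and -1.19 with both, against 0.0016, 0.0089 and 0.013 over all genes. The 3 comparisons share the untreated libraries, so their counts are not independent of each other. Falls of at least 2-fold were called for 15, 17 and 25 members, where 5.78%, 6.53% and 10.6% of all genes fell that far, and such rises for 4, 3 and 4, where 7.99%, 8.77% and 12.4% of all genes rose that far.

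**Figure D1:**
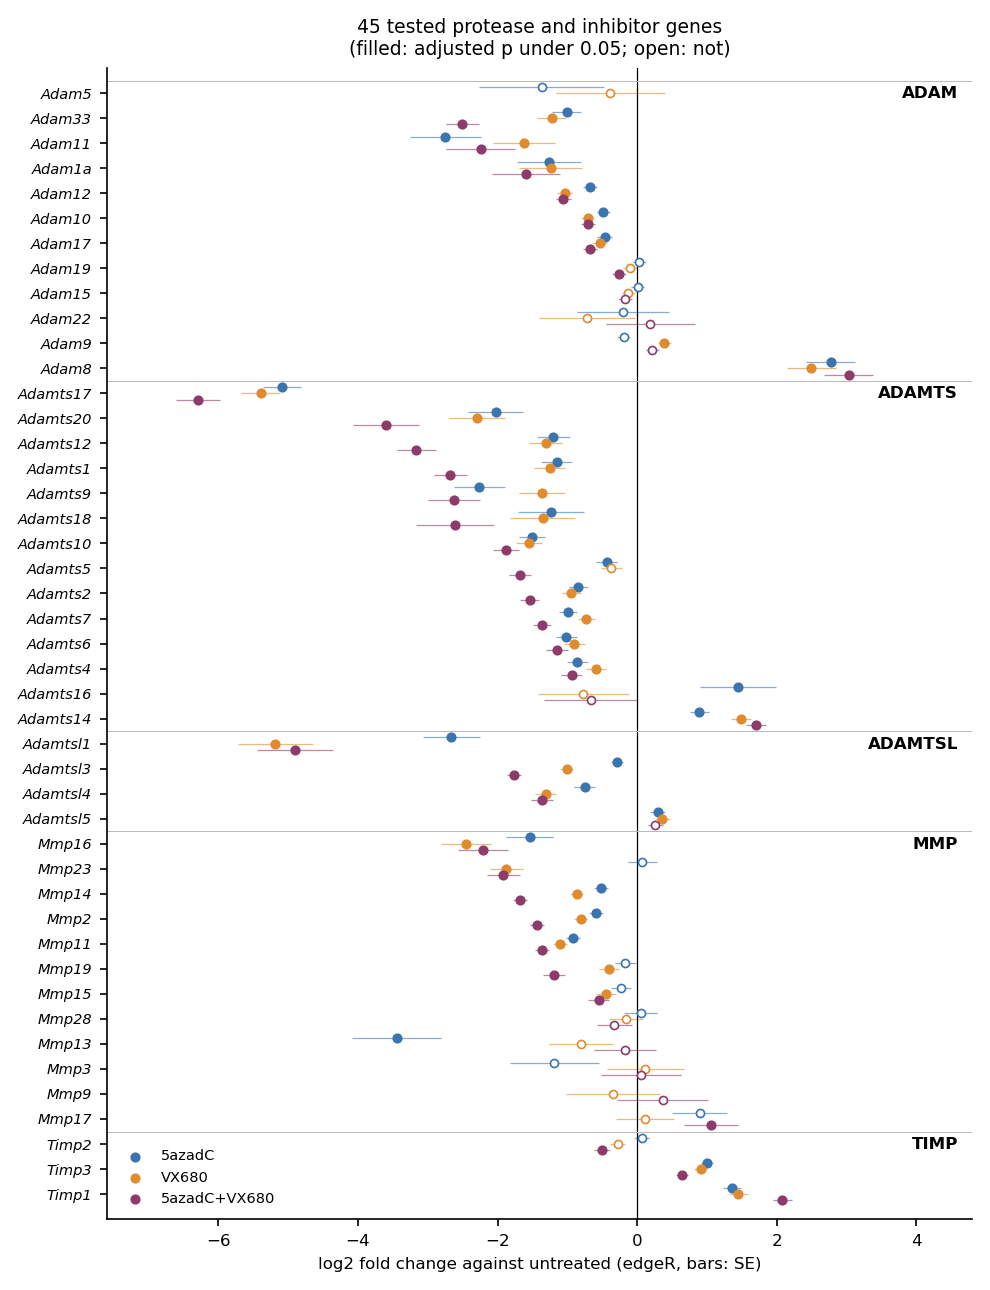
The log2 fold change against untreated (horizontal axis, bars are SE) of the 45 tested genes, by family, for 5azadC, VX680 and 5azadC+VX680, filled where the adjusted p was under 0.05. Adam5 with both drugs and Mmp9 with 5azadC, which rest on 0 and 2 reads, are not drawn; most points lie left of 0, while Adam8, Adamts14, Timp1 and Timp3 lie to its right in all 3 comparisons.

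By family, the ADAMTS genes had the largest share of falls: 12, 11 and 12 of 14 tested genes fell with 5azadC, VX680 and both. Of the ADAMTSL genes 3 of 4 fell in each comparison, of the MMP genes 6, 7 and 7 of 12, and of the ADAM genes 6, 6 and 8 of 12. Of the TIMP genes, 2 of 3 rose in each comparison. Across the 3 comparisons 24 members fell in all and 4 rose in all, namely Adam8, Adamts14, Timp1 and Timp3, where 14.4% of all genes fell in all and 15.8% rose in all. In none of the 3 were Adam15, Adam22, Mmp3 and Mmp28 called.

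The 5 tested ADAMTS genes of the group whose products cut proteoglycans (Adamts1, Adamts4, Adamts5, Adamts9, Adamts20) all fell with 5azadC and with both drugs. With VX680, 4 of 5 fell. Adamts1, the most abundant of them, was at 732 and 755 CPM in the untreated libraries, 217 and 454 CPM with 5azadC, 321 and 302 CPM with VX680 and 110 and 123 CPM with both. No treated library of Adamts1 reached the untreated ones, the combined libraries were the lowest, and the 5azadC libraries lay far apart. Its log2 change was -1.15 ± 0.22 (SE) with 5azadC (edgeR adjusted p = 0.000955), -1.25 ± 0.22 with VX680 (edgeR adjusted p = 0.000413) and -2.67 ± 0.24 with both (edgeR adjusted p = 5.67e-07). Adamts5, the main aggrecan-cleaving protease of mouse cartilage, was at 367 and 387 CPM untreated, 215 and 344 CPM with 5azadC, 294 and 289 CPM with VX680 and 119 and 117 CPM with both. The combined libraries were the lowest, and the 5azadC libraries lay apart. The log2 change was -0.43 ± 0.15 with 5azadC (edgeR adjusted p = 0.0354), -0.37 ± 0.15 with VX680, which did not pass the test (edgeR adjusted p = 0.0636), and -1.68 ± 0.16 with both (edgeR adjusted p = 1.17e-06). The fall with 5azadC was lost when any library other than 5azadC replicate 2 was left out, and was smallest (-0.13) without 5azadC replicate 1, while the change with VX680 passed the test under 5 alternatives.

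Adamts20, known from the belted coat mutant of the mouse, was at 24.5 and 26.5 CPM untreated, 2.56 and 10.3 with 5azadC, 4.61 and 5.86 with VX680 and 2.11 and 2.07 with both. It fell (log2 changes of -2.03 ± 0.40, -2.29 ± 0.40 and -3.598 ± 0.47) on the log2 scale. Adamts9, a relative of Adamts20, went from 28 and 37.8 CPM to 3.46 and 10.6 with 5azadC, 15.1 and 9.99 with VX680 and 5.76 and 4.83 with both, so that all treated libraries were below the untreated ones. Its changes were -2.26 ± 0.36, -1.37 ± 0.33 and -2.62 ± 0.38, and the fall with VX680 was lost without VX680 replicate 2 (-1.12, edgeR adjusted p = 0.0597). Adamts4 fell less (log2 changes of -0.85, -0.59 and -0.94). Its value is uncertain, since the sources used here do not state whether reads were counted by strand.

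The deepest fall of the family was in Adamts17, grouped here with Adamts6 and Adamts10 as linked to fibrillin microfibrils. Mutations of human ADAMTS17 and ADAMTS10 are known from syndromes of short stature. Adamts17 had 1266 and 722 reads in the untreated libraries, 16 and 36 with 5azadC, 25 and 21 with VX680, and 14 and 6 with both. In CPM this was 115 and 106, 1.78 and 4.94, 2.45 and 2.8, and 1.97 and 0.828. Each drug alone thus brought Adamts17 down 34.0-fold and 42.1-fold, and the pair 78.4-fold, with log2 changes of -5.09 ± 0.27, -5.40 ± 0.28 and -6.29 ± 0.32 (edgeR adjusted p = 2.94e-08, 1.05e-08 and 4.24e-09). The pair did not differ from 5azadC alone (log2 -1.21 ± 0.48, edgeR adjusted p = 0.0866) or from VX680 alone (-0.90 ± 0.50, edgeR adjusted p = 0.337) past the threshold.

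Adamts10 fell less. It was at 138 and 144 CPM untreated, 36 and 64.3 with 5azadC, 48.3 and 48.2 with VX680 and 39.9 and 36.6 with both, with log2 changes of -1.504 ± 0.18, -1.55 ± 0.18 and -1.88 ± 0.19. Adamts6 fell (log2 changes of -1.01, -0.90 and -1.15). All 3 tested fibrillin-linked genes fell in each comparison against untreated, and none of them was called when the combination was compared with either drug alone.

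Adamts7 and Adamts12, which cleave cartilage oligomeric matrix protein, also fell in each comparison. Adamts12 was at 118 and 119 CPM untreated, 32 and 72.4 with 5azadC, 50 and 45.7 with VX680 and 13.5 and 13 with both. The combined libraries were far below all others, and the log2 changes were -1.20 ± 0.24, -1.31 ± 0.24 and -3.16 ± 0.28 (edgeR adjusted p = 0.00118, 0.000509 and 5.67e-07). Adamts7, whose exons overlap Tbc1d2b on the other strand, fell (log2 changes of -0.99, -0.73 and -1.36).

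The 2 tested procollagen N-propeptidases, which trim fibrillar procollagens before fibrils form, moved in opposite directions. Adamts2 was at 218 and 262 CPM untreated, 113 and 154 with 5azadC, 126 and 123 with VX680 and 85.2 and 79.6 with both, and fell (log2 changes of -0.84 ± 0.13, -0.94 ± 0.13 and -1.54 ± 0.14). Adamts14 started lower, at 17.1 and 20.7 CPM, and was at 35.8 and 33.7 with 5azadC, 51.7 and 53.3 with VX680 and 66.5 and 55.6 with both. It rose by 0.89 ± 0.14, 1.49 ± 0.14 and 1.71 ± 0.14 (edgeR adjusted p = 0.000226, 1.84e-06 and 2.82e-07). With Adamts16 after 5azadC it was 1 of 2 ADAMTS genes called higher in any comparison against untreated. Per length, the untreated level of Adamts2 was 33.1 ± 4.31 RPKM and that of Adamts14 was 3.66 ± 0.483 RPKM.

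Adamts16 and Adamts18, which are close relatives, had few reads. Adamts16 was at 1.09 and 1.91 CPM untreated, 2.68 and 5.35 with 5azadC, 1.08 and 0.533 with VX680 and 0.562 and 1.24 with both. Its rise with 5azadC, 1.45 ± 0.54, passed the test narrowly (edgeR adjusted p = 0.0456) and was lost under 9 of the alternatives tried, with the lowest value, 0.87, without 5azadC replicate 2. Adamts18 fell (log2 changes of -1.24 ± 0.47, -1.35 ± 0.47 and -2.61 ± 0.56). Its single-drug calls (edgeR adjusted p = 0.0486 and 0.0302) were lost without either untreated library, among other alternatives.

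Among the ADAMTS-like genes, which code for no protease, Adamtsl3 showed steps of unequal size. It was at 288 and 277 CPM untreated, 216 and 248 with 5azadC, 140 and 141 with VX680 and 81.1 and 85 with both. Its log2 changes were -0.29 ± 0.09, -1.01 ± 0.09 and -1.77 ± 0.10 (edgeR adjusted p = 0.0218, 1.66e-06 and 7.4e-09), and the fall with 5azadC was lost without untreated replicate 1 (-0.28) or 5azadC replicate 1 (-0.19). Adamtsl1, which had 94 and 92 reads in untreated cells, had 19 and 9 with 5azadC, 2 and 3 with VX680 and again 2 and 3 with both, with changes of -2.66 ± 0.41, -5.19 ± 0.54 and -4.91 ± 0.54. Adamtsl4, tied to the lens suspension fibres in humans, fell (log2 changes of -0.75, -1.31 and -1.36). Adamtsl5 was at 114 and 129 CPM untreated and between 134 and 165 CPM in all treated libraries. It rose by 0.30 ± 0.11 with 5azadC and 0.36 ± 0.11 with VX680. The change of Adamtsl5 with both, 0.26 ± 0.11, did not pass the test (edgeR adjusted p = 0.0553). Both calls were lost without untreated replicate 1 (0.19 and 0.25) or VX680 replicate 1 (0.297 and 0.267).

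**Figure D2:**
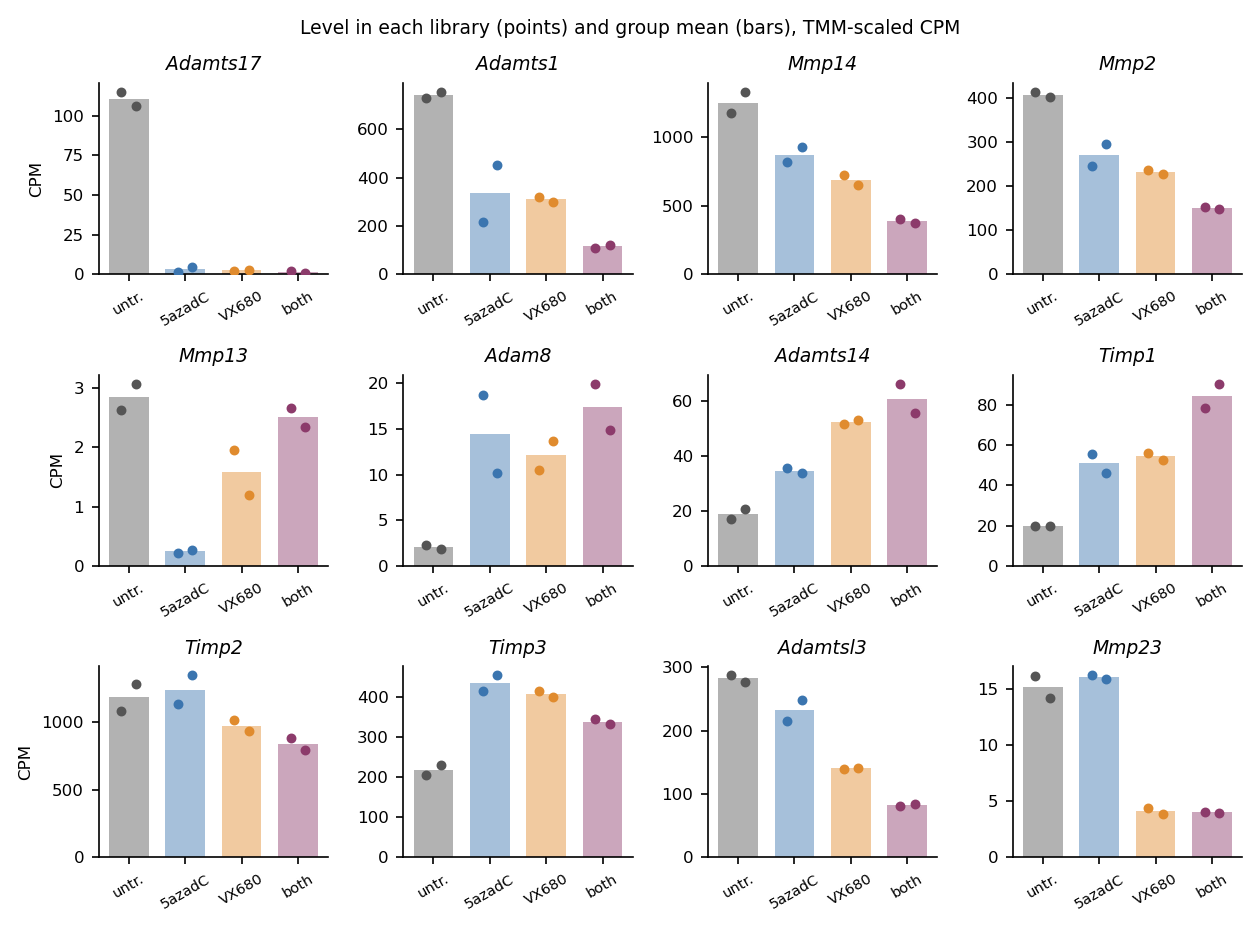
Level of 12 members in each library (points, CPM after scaling between libraries) and the mean of each group of 2 (bars, from 0), for untreated cells, 5azadC, VX680 and both drugs. Adamts17 sits between 0.828 and 4.94 CPM in all treated libraries against 106 and 115 in untreated ones, while Timp1 goes from 19.9 to between 78.3 and 90.7 with both drugs.

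Of the matrix metalloproteinases none rose with a single drug, and the abundant ones fell. The membrane-anchored Mmp14, which had the highest level of all members, was at 1174 and 1326 CPM untreated, 820 and 923 with 5azadC, 719 and 649 with VX680 and 406 and 377 with both. Its libraries separated in that order without overlap, with log2 changes of -0.52 ± 0.10, -0.87 ± 0.10 and -1.67 ± 0.10 (edgeR adjusted p = 0.000821, 1.05e-05 and 1.7e-08). Mmp2, the gelatinase that MMP14 activates, was at 413 and 401 CPM untreated, 246 and 296 with 5azadC, 237 and 227 with VX680 and 152 and 148 with both. It fell (log2 changes of -0.59 ± 0.10, -0.81 ± 0.10 and -1.44 ± 0.10), and again the combined libraries were the lowest. Mmp11, stromelysin-3, was at 201 and 219 CPM untreated, 106 and 116 with 5azadC, 100.3 and 94.8 with VX680 and 84.9 and 78.5 with both, and fell (log2 changes of -0.92 ± 0.10, -1.10 ± 0.10 and -1.36 ± 0.10).

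The other membrane-type genes did not move alike. Mmp16 was at 11.1 and 7.48 CPM untreated, 3.01 and 3.43 with 5azadC, 1.67 and 1.73 with VX680 and 2.25 and 1.79 with both, and fell (log2 changes of -1.54 ± 0.33, -2.46 ± 0.36 and -2.21 ± 0.36). Mmp15 fell with VX680 (-0.45) and with both (-0.55), while its change with 5azadC, -0.23, was not called. Its fall with VX680 was lost without untreated replicate 2 (-0.38) or either VX680 library, and that with both without 5azadC+VX680 replicate 2 (-0.46). Mmp17, anchored by a lipid, was at 4.26 and 4.1 CPM untreated and 5.76 and 11.7 with both. It was the only MMP gene called higher in a comparison against untreated (1.06 ± 0.39, edgeR adjusted p = 0.0336), and the call was lost without untreated replicate 1 (1.08) or 2 (1.03) or without 5azadC+VX680 replicate 2 (0.45).

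Mmp23, a small MMP with no hemopexin domain, fell with VX680 and was not called with 5azadC. It was at 16.2 and 14.2 CPM untreated, 16.3 and 15.9 with 5azadC, 4.42 and 3.86 with VX680 and 4.08 and 4 with both. The 2 groups that received VX680 lay together far below the 2 that did not. The log2 change was 0.07 ± 0.21 with 5azadC, -1.87 ± 0.23 with VX680 and -1.92 ± 0.24 with both (edgeR adjusted p = 0.798, 2.27e-05 and 1.46e-05), and with both drugs it was -0.04 ± 0.27 relative to VX680 alone. Mmp19 was at 48.2 and 57.3 CPM untreated and fell with VX680 (-0.40) and with both (-1.19), the former not without untreated replicate 2 (-0.29) or VX680 replicate 2 (-0.28). Its exons overlap Tmem198b on the other strand.

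Mmp13, an interstitial collagenase, and Mmp9, a gelatinase, had few reads and a pattern of their own: low with 5azadC alone and not with 5azadC+VX680. Mmp13 had 29 and 21 reads in the untreated libraries, 2 and 2 with 5azadC, 20 and 9 with VX680 and 19 and 17 with both. The 5azadC libraries were below all others, and the log2 change was -3.44 ± 0.64 with 5azadC (edgeR adjusted p = 0.000689), -0.81 ± 0.46 with VX680 (edgeR adjusted p = 0.165) and -0.17 ± 0.44 with both (edgeR adjusted p = 0.758). With both drugs Mmp13 was 3.27 ± 0.65 higher than with 5azadC alone (edgeR adjusted p = 0.00257). Mmp9 had 21 and 6 reads untreated, 2 and 0 with 5azadC, 9 and 11 with VX680 and 20 and 7 with both. The 27 untreated reads against 2 with 5azadC, after scaling, gave a level 12.3-fold lower, with an exact 95% counting interval of 3.09 to 107 that covers counting error only. The edgeR test called Mmp9 lower with 5azadC against untreated (edgeR adjusted p = 0.0165) and higher with both drugs than with 5azadC alone (edgeR adjusted p = 0.0149). The first of these calls was lost without untreated replicate 1 or 5azadC replicate 2. Whether the second held under the alternatives was not followed.

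Of the 9 tested ADAM genes with a zinc site, 5, 5 and 6 fell and 1, 2 and 1 rose with 5azadC, VX680 and both. Adam10 and Adam17, the main sheddases of Notch receptors and of TNF and EGF family ligands, fell modestly. Adam10 was at 164 and 171 CPM untreated, 120 and 119 with 5azadC, 109 and 95.8 with VX680 and 104 and 102 with both, with changes of -0.48 ± 0.09, -0.71 ± 0.09 and -0.70 ± 0.09. Adam17 went from 121 and 108 CPM to between 67.3 and 84.3 CPM in all treated libraries and fell (log2 changes of -0.47, -0.54 and -0.67), with the limit that its exons overlap Iah1 on the other strand. Adam12, which marks activated mesenchymal cells, was at 98.2 and 109 CPM untreated and fell (log2 changes of -0.68, -1.04 and -1.05).

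Adam33 fell further with the pair than with either drug. It was at 53.8 and 72.3 CPM untreated, 23.3 and 39.5 with 5azadC, 26.4 and 27.2 with VX680 and 9.98 and 12 with both, with changes of -1.01 ± 0.21, -1.23 ± 0.21 and -2.51 ± 0.24. Adam9 rose with VX680, from 151 and 146 CPM to 194 and 195 (0.39 ± 0.09, edgeR adjusted p = 0.00342), and was at 136 and 124 CPM with 5azadC and 181 and 163 with both, where it was not called. Adam19 fell with both drugs (-0.26, edgeR adjusted p = 0.04) and was not called with either drug alone. That call was lost under 9 alternatives, among them leaving out untreated replicate 2 (-0.20). Adam15 ranged from 128 to 161 CPM over all 8 libraries and was not called in any comparison.

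Adam8, a sheddase best known from leukocytes, was the ADAM gene that rose in all 3 comparisons against untreated. It was at 2.27 and 1.91 CPM untreated, 18.7 and 10.1 with 5azadC, 10.5 and 13.7 with VX680 and 20 and 14.9 with both. All treated libraries lay far above the untreated ones, and the 5azadC libraries overlapped those of VX680 and of both drugs. The rise was 6.84-fold, 5.65-fold and 8.18-fold, or 2.77 ± 0.35, 2.50 ± 0.35 and 3.03 ± 0.35 on the log2 scale (edgeR adjusted p = 3.27e-05, 6.86e-05 and 6.65e-06). The leukocyte markers summed to 21.8 to 23.7 CPM in untreated libraries, 20.9 to 25.2 with 5azadC, 24.6 to 26.4 with VX680 and 26.2 to 32.6 with both, and of 3 tested 1, Cd68, rose in each comparison against untreated, while 1, Lyz2, fell with VX680 (-0.96) and with both (-1.68).

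The ADAM genes without a zinc site and those mainly of the testis had few reads. Adam11, of the brain group without a working site, had 50 and 33 reads untreated and 4 and 7 with 5azadC, 17 and 10 with VX680 and 8 and 6 with both, and fell (log2 changes of -2.75, -1.62 and -2.24), where the fall with VX680 was lost without VX680 replicate 1 (-1.80) or 2 (-1.48). Adam1a fell (log2 changes of -1.26 ± 0.46, -1.24 ± 0.46 and -1.59 ± 0.49). Its calls did not survive without untreated replicate 2 (-0.95, -0.92 and -1.27), and its exons overlap Mapkapk5 on the same strand, which had 4612 reads. Adam5 had 20 and 4 reads untreated, 6 and 2 with 5azadC, 16 and 2 with VX680 and none with both, which made it at least 6.44-fold lower with both than untreated, against a floor of 3 reads over the group. The call was lost without untreated replicate 1, which held 20 of the 24 untreated reads, or without either of the 5azadC+VX680 libraries.

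Of the 3 inhibitors, Timp1 and Timp3 rose in all 3 comparisons against untreated, while Timp2 fell with both drugs and was not called with either drug alone. Timp1, the secreted and inducible inhibitor, which lies within an intron of Syn1 on the X chromosome, was at 19.9 and 19.9 CPM untreated, 55.8 and 46.4 with 5azadC, 56.4 and 52.6 with VX680 and 78.3 and 90.7 with both. The untreated libraries were the lowest and the combined ones the highest, with no overlap. Timp1 rose by 1.36 ± 0.13, 1.45 ± 0.13 and 2.08 ± 0.13 (edgeR adjusted p = 3.84e-06, 1.55e-06 and 2.63e-08), that is 2.57-fold, 2.73-fold and 4.24-fold.

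Timp3, which stays bound to the matrix and also inhibits ADAM17 and ADAMTS proteases, was at 205 and 230 CPM untreated, 415 and 455 with 5azadC, 415 and 399.8 with VX680 and 345 and 333 with both. All treated libraries were above the untreated ones, and the combined ones lay below those of either drug. It rose by 1.003 ± 0.09, 0.91 ± 0.09 and 0.64 ± 0.09 (edgeR adjusted p = 2.08e-06, 3.65e-06 and 4.65e-05), and with both drugs it was lower than with 5azadC alone (log2 -0.36 ± 0.09, edgeR adjusted p = 0.0107), while the difference from VX680 alone was not called (-0.27 ± 0.09, edgeR adjusted p = 0.11). Timp2, which takes part in activating MMP2, was at 1087 and 1286 CPM untreated, 1134 and 1351 with 5azadC, 1016 and 939 with VX680 and 882 and 795 with both. Its change was 0.07 ± 0.11 with 5azadC and -0.28 ± 0.11 with VX680 (edgeR adjusted p = 0.66 and 0.0504), and it fell with both, -0.50 ± 0.11 (edgeR adjusted p = 0.00154). Timp4 had 3 reads in all.

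Summed over each family, the MMP level was 1932 and 2097 CPM in untreated libraries, 1289 and 1476 with 5azadC, 1163 and 1068 with VX680 and 735 and 687 with both. The ADAMTS sum was 1931 and 2042 CPM untreated, 752 and 1243 with 5azadC, 1027 and 979 with VX680 and 519 and 511 with both. The TIMP sum stayed between 1218 and 1852 CPM in all libraries. The ratio of the summed TIMP level to the summed MMP level was 0.679 and 0.733 in untreated cells, 1.25 and 1.25 with 5azadC, 1.28 and 1.3 with VX680 and 1.78 and 1.77 with both. These are sums of RNA levels, led by Timp2 and Mmp14, and they carry no test of their own.

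**Figure D3:**
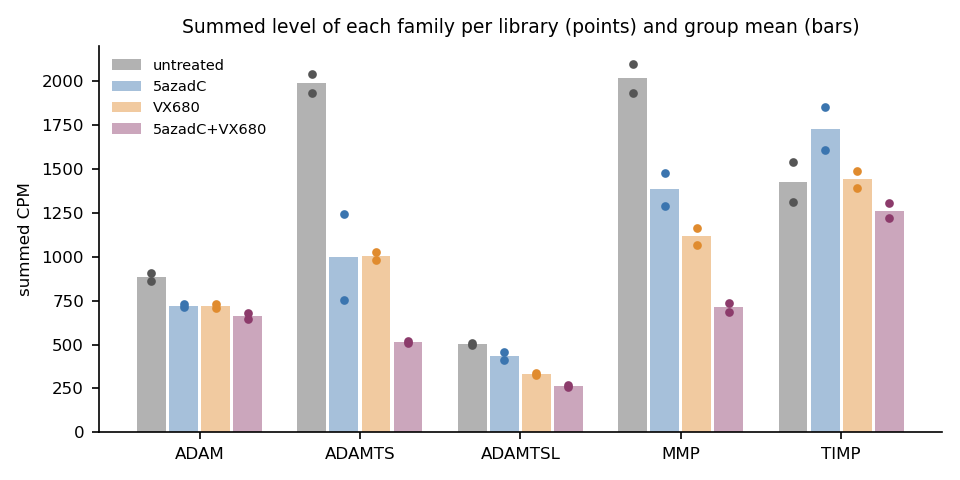
Summed CPM of each gene family in each library (points) and the mean of each group of 2 libraries (bars, from 0). The ADAMTS and MMP sums fall from untreated to both drugs, to 511 and 687 CPM in the lowest library, while the lowest TIMP sum is 1218 CPM.

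Adding the second drug was tested directly. Relative to 5azadC alone, 19 members fell and 5 rose with both drugs, where 14.8% and 9.98% of all genes did. The count of falls was 12, and of rises 3, without 5azadC+VX680 replicate 1. Relative to VX680 alone, 10 members fell and 1 rose, where 4.05% and 2.45% of all genes did. That count of falls was 5 without VX680 replicate 1, 6 without 5azadC+VX680 replicate 1 and 4 without 5azadC+VX680 replicate 2. With both drugs 9 members were called lower in the tests against each single drug: Adam33, Adamts1, Adamts2, Adamts5, Adamts12, Adamtsl3, Mmp2, Mmp14 and Mmp19. These were 20% of the members tested, where 3.23% of all genes were called lower in both tests. The 1 member that rose against VX680 alone was Timp1, and that count was 0 without VX680 replicate 1, VX680 replicate 2 or 5azadC+VX680 replicate 2. In the fit of all libraries Timp1 was higher with both than with each single drug, by 0.72 ± 0.12 and 0.63 ± 0.12 (edgeR adjusted p = 0.000759 and 0.00703).

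The interaction term asks whether the log2 change with both drugs differs from the sum of the 2 single-drug changes. It was positive for 10 members and negative for 6, where 4.95% and 10.6% of all genes were called. The positive count was 6 without untreated replicate 1, untreated replicate 2, VX680 replicate 1 or 5azadC+VX680 replicate 2, 5 without VX680 replicate 2 and 2 without 5azadC+VX680 replicate 1. The negative count was 2 without untreated replicate 1 or VX680 replicate 1, 3 without VX680 replicate 2 or either 5azadC+VX680 library, and 11 without 5azadC replicate 1. For genes that fell with each drug, a positive value means that the pair lowered them less than the sum. Adamts17 had the largest such value among genes with more than 3 reads in every group, 4.19 ± 0.68 (edgeR adjusted p = 0.00109) and each drug alone had brought it below 5 CPM in every library. Adamts10 (1.17), Adamts6 (0.77), Mmp16 (1.79), Mmp11 (0.66), Adam12 (0.66), Adam10 (0.49) and Adamtsl4 (0.70) were of the same kind. Those of Adamts6, Mmp16, Adamtsl4 and Adam10 were lost under 9, 8, 7 and 4 alternatives, and those of Adamts17 (3.45), Adamts10 (1.1) and Adam12 (0.59) without 5azadC+VX680 replicate 1. Adam8, Timp1, Timp3 and Adamts14 rose less with both than the sum, with interactions of -2.24 ± 0.46, -0.73 ± 0.18, -1.27 ± 0.13 and -0.68 ± 0.19. The interaction of Timp1 was lost under 3 alternatives (without untreated replicate 1, VX680 replicate 1 or 5azadC+VX680 replicate 1, -0.71 to -0.63), and that of Adamts14 under 5 (DESeq2, and without untreated replicate 1, either VX680 library or 5azadC+VX680 replicate 2, -0.70 to -0.51). Adamts5 and Adamtsl3 fell more with both than the sum, with interactions of -0.87 ± 0.22 (edgeR adjusted p = 0.0167) and -0.47 ± 0.13 (edgeR adjusted p = 0.0288). The interaction of Adamts5 was lost when any library outside the 5azadC group was left out (-0.90 to -0.82), and that of Adamtsl3 when any library other than 5azadC replicate 1 was (-0.51 to -0.35). The interaction of Timp3 was called under all alternatives tried.

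**Figure D4:**
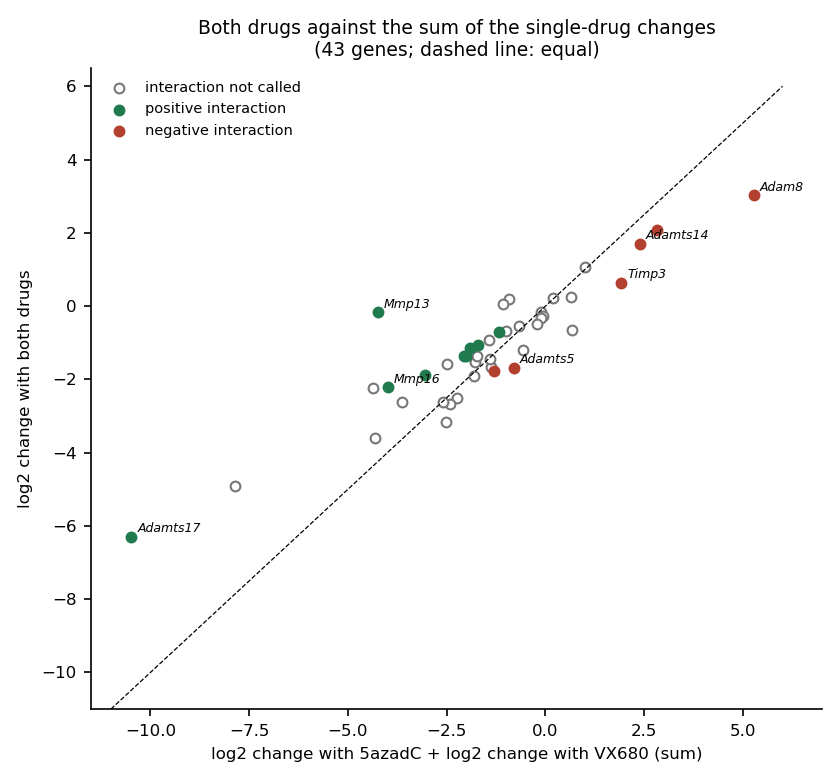
Log2 change with both drugs (vertical axis) against the sum of the 2 single-drug log2 changes (horizontal axis) for 43 tested genes, without Adam5 and Mmp9, whose values rest on 0 and 2 reads. Points on the dashed line are additive, filled points have a called interaction; Adamts17 and Mmp13 lie above the line, and Adam8, Timp3 and Adamts5 lie below it.

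Reads that carry a parental variant made up 26.1% to 26.9% of the reads of each library and gave the mus share of 34 members with a mean of at least 10 such reads per library. The median mus share in untreated cells was 39.1%, and 12 of 34 members lay between 40% and 60%, with the X-linked Timp1 among the 34. No share over all genes is set beside this median, so it does not show a lean particular to these members. The ratio of mus to cas reads was called changed for 0 of 34 members in each of the 3 comparisons against untreated, where edgeR called 0.282%, 0.379% and 0.515% of 10301 genes. Among the 34 were Adam33 and Mmp16, each with allelic reads from a single allele in all libraries. For these genes the test could not measure a change, so the lack of a call says nothing about them. At an unadjusted p under 0.05 there were 3, 7 and 7 members with 5azadC, VX680 and both, where 6.64%, 6.33% and 7.98% of all genes were, and the smallest adjusted p values were 0.16, 0.166 and 0.0796.

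For Timp1, the X-linked member, mus and cas reads give the X chromosome from which its reads came. The mus and cas reads were 0 and 43, and 0 and 10, in the untreated libraries, 1 and 50, and 0 and 45, with 5azadC, 3 and 88, and 0 and 52, with VX680, and 0 and 79, and 1 and 66, with both. In the untreated libraries a count of 0 allows a mus share of up to 6.98% and 30%, taken as 3 reads of the total, and the exact 95% upper bounds are 8.22% and 30.8%. The highest share, in VX680 replicate 1, was 3.3% (exact Clopper-Pearson 95% interval 0.685% to 9.33%, counting error only). Pooled over the libraries of a group, 1 of 96, 3 of 143 and 1 of 146 allelic reads were from mus with 5azadC, VX680 and both, and the change of the allele ratio did not pass the test in any comparison (edgeR adjusted p = 0.934, 0.931 and 0.926).

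**Figure D5:**
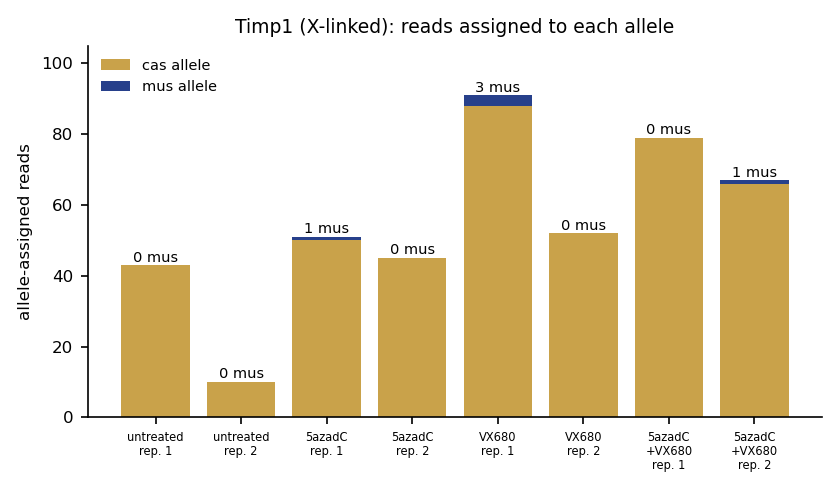
Timp1 reads assigned to the cas allele (light) and to the mus allele (dark) in each of the 8 libraries, stacked from 0. The mus reads number between 0 and 3 in each library, while the cas reads range from 10 to 88.

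Among the other members, Adam33 and Mmp16 had reads from 1 allele only in every group. Adam33 had mus reads only, 626 of 626 allelic reads in untreated cells, 311 of 311 with 5azadC, 300 of 300 with VX680 and 112 of 112 with both. Mmp16 had no mus read in 76 allelic reads of untreated cells, nor in 12, 7 and 17 of the treated groups. Adam8 moved most: its mus share was 2 of 11 reads in untreated cells, 56 of 59 and 15 of 21 in the 5azadC libraries, 19 of 40 and 12 of 28 with VX680 and 21 of 37 and 27 of 37 with both. Pooled over libraries this was 18.2% untreated and 88.8% with 5azadC, a difference that did not pass the test (edgeR adjusted p = 0.16), with 11 allelic reads in the untreated group. Adamts14 went from 30.4% mus untreated to 16.6%, 14% and 14% (edgeR adjusted p = 0.542, 0.227 and 0.177). Adamts1, Mmp14 and Mmp2, which with Timp2 had the most allelic reads in untreated cells, had mus shares of 48%, 28.3% and 52.2% there and 44%, 28.1% and 57.6% with both drugs.

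The genes around these proteases were followed in lists, which were also chosen with earlier results of these data known. The counts of each list stand beside those of all genes tested with 5azadC, VX680 and both. Of all genes, 22.6%, 23.8% and 28.4% rose and 19.6%, 22.4% and 27.3% fell. Several lists lay near these shares, and whether a list as a whole differed from them was not tested. In the plasminogen system, which activates several MMP precursors, 5, 5 and 6 of 8 tested genes rose with 5azadC, VX680 and both, and 0, 0 and 1 fell, with a median log2 change of 1.93, 2.45 and 3.06. The urokinase receptor gene Plaur rose by 3.08, 3.30 and 4.01. St14, matriptase, had no read in untreated cells and 64, 113 and 163 reads in the treated groups, at least 23.4-fold, 38.0-fold and 67.5-fold higher against a floor of 3 reads over the group.

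Of 7 zymogen activators and membrane inhibitors, 2, 2 and 3 rose and 2, 2 and 1 fell (medians 0.012, -0.059 and 0.31). Furin, which removes the propeptide of many members, rose by 0.71, 0.31 and 0.47, while Reck, a membrane-anchored MMP inhibitor, fell (log2 changes of -1.54, -1.61 and -2.04). Pcsk6 rose by 0.58 with VX680 and 0.38 with both. Of 14 ADAM10 and ADAM17 cofactors 5, 7 and 7 rose and 2, 1 and 4 fell (medians 0.23, 0.30 and 0.24). Rhbdf2, the inactive rhomboid that brings ADAM17 to the surface, rose by 1.81, 1.82 and 2.16, and the integrin genes Itga6 and Itga3 rose in each comparison, Itga6 by 2.09 and Itga3 by 0.75 with both.

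Of 33 shed ligands and receptors 14, 13 and 13 rose and 10, 11 and 16 fell (medians 0.020, -0.11 and -0.20). Hbegf, an EGF family ligand, rose from 5.07 ± 1.16 CPM by 2.52, 3.32 and 3.96. Cd44 rose by 1.53, 1.66 and 1.97, while Fgfr2 fell (log2 changes of -0.92, -1.52 and -1.88). In a list of matrix substrates of ADAMTS proteases and some other genes, such as Has2 and Tfpi2, falls were more frequent. Of 22 tested, 11, 15 and 16 fell and 5, 4 and 3 rose (medians -0.37, -0.70 and -1.11). The list shares Col1a1, Col1a2, Col3a1, Dcn, Lum and Fn1 with the fibroblast markers, so its falls are in part the same observation. Vcan, versican, was at 1511 ± 176 CPM untreated and 238 ± 6.02 CPM with both and fell (log2 changes of -1.47, -2.38 and -2.67). Col1a2 fell (log2 changes of -1.08, -1.74 and -2.605), whereas Ltbp2 rose by 2.31, 1.66 and 1.63.

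Of 13 other matrix metalloproteases and their enhancers 4, 6 and 6 rose and 5, 5 and 5 fell (medians 0.10, 0.15 and 0.093). The procollagen C-proteinase gene Bmp1 fell (log2 changes of -0.81, -0.97 and -1.25) as did its enhancer Pcolce (-0.73, -1.498 and -1.66), while Pcolce2 rose by 1.08, 1.55 and 1.45. Of 20 cysteine and other matrix proteases and their inhibitors 4, 7 and 7 rose and 7, 7 and 5 fell (medians -0.15, -0.028 and -0.054), with the cystatin genes Cstb and Cst6 up by 1.37 and 3.67 and Prss23 up by 1.74 with both. Of 14 clearance and surface receptors 6, 3 and 4 rose and 4, 7 and 7 fell (medians 0.11, -0.38 and -0.49). The collagen receptor gene Mrc2 fell (log2 changes of -0.77, -1.63 and -2.23). Itga11 rose by 0.72 with 5azadC and fell with VX680 (-0.89) and both (-2.54), and Lrp8 rose by 1.44, 1.17 and 1.13.

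Of 29 transcription factors known to bind MMP promoters 17, 16 and 15 rose and 3, 9 and 9 fell (medians 0.48, 0.35 and 0.30). The AP-1 genes Fosl1 and Jun rose in each comparison, Fosl1 by 3.55, 3.83 and 4.38 and Jun by 1.37, 1.49 and 1.55, while Maf fell (log2 changes of -1.71, -2.99 and -3.46). Of 15 genes for known inducers and their receptors 7, 7 and 8 rose and 2, 4 and 5 fell (medians 0.26, 0.80 and 0.49). Il1rl1 rose by 3.78, 4.64 and 4.82, Wnt5a fell (log2 changes of -1.01, -1.49 and -1.48), and Tgfb3 fell with both (-1.04).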

How the data were processed

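Groups were taken from the sample labels. Per the labels' protocols, total RNA was made into dUTP-marked directional libraries, and per the submitters' processing notes reads were processed on mm9 with tools that included TopHat2 2.0.10, HOMER 4.8 and an edgeR of unnamed version. Whether reads were counted by strand is not given in the sources used here. The authors deposited raw read counts per gene, composite and for each parental allele, and a normalized signal per gene, which equals the raw counts times 1 factor per library. The gene length of the deposited composite table gave the kilobases of RPKM.

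Raw composite counts were tested with edgeR 4.0.16 (quasi-likelihood F test, filterByExpr, TMM scaling, 1 mean per group over all 8 libraries, Benjamini-Hochberg over 12643 genes, threshold 0.05) in R 4.3.3. CPM and RPKM are TMM-scaled. The allele ratio was tested with edgeR on mus and cas counts, with a term per library, over the 10301 genes whose mus and cas reads together averaged 10 or more per library. In simulated counts for the 5azadC comparison, with 200 of 12378 and 200 of 12382 genes changed, 92% of 2-fold and 100% of 4-fold changes were recovered. There were 5 and 10 false calls. The simulation gave a gene the same spread in all libraries and changed no gene of low level. Recovery was thus not measured for the wider spread of the real 5azadC libraries or for members with few reads. Alternatives were DESeq2 1.42.0, RLE size factors, limma 3.58.1 on log2(signal + 1), no filter, a replicate block, other coverage minimums and leaving out each library.

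Members and gene lists were chosen with earlier results of these data known. Values per library are given for the 6 largest called rises and falls against untreated (mean log2 CPM of at least 1), the 5 largest called interactions, the TIMP genes and X-linked members; other members follow by role, and each list names the 3 genes with the smallest p, except for 1 that is not reported here. Adamts5, Mmp15, Mmp19, Adam5, Adam15, Adam19 and the markers Cd68 and Lyz2 fell outside this rule and were named after their values were seen. Overlaps with neighbouring genes come from GENCODE M21 (GRCm38), used here for names, coding sequence and neighbours only.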

Additional observations from a re-analysis of the deposited data

Results flagged for a closer look

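A called interaction means that the effect of each drug differed with and without the other drug, by the edgeR test of that difference, on the log2 scale. There were 16 such members among the 45 tested. The called value was positive for 22.2% and negative for 13.3% of the members tested, where 4.95% and 10.6% of all genes were called. The negative share thus lay near that of all genes. The value was negative for Adam8 (-2.24), Timp3 (-1.27), Adamts5 (-0.87), Timp1 (-0.73), Adamts14 (-0.68) and Adamtsl3 (-0.47). It was positive for Adam10 (0.49), Mmp11 (0.66), Adam12 (0.66), Adamtsl4 (0.70), Adamts6 (0.77), Adamts10 (1.17), Mmp16 (1.79), Mmp13 (4.08), Mmp9 (4.13) and Adamts17 (4.19). The values of Mmp13 and Mmp9 rest on 4 and 2 reads in the 5azadC group, and the fitted size for Mmp9 depends on how so few reads are handled. In Mmp13 the addition of VX680 to 5azadC went with a rise, from 2 and 2 reads to 19 and 17, where VX680 alone left it at 20 and 9 reads against 29 and 21 untreated.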

How the results depend on the processing

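For the members named, the 139 log2 values followed under the alternatives were the changes against untreated and the called interactions. Of the recomputed values 141 lost their call, 22 gained one, 11 changed sign and the others kept direction and side of the threshold. Changes of the pair against a single drug, and those of list and marker genes, were not followed gene by gene. The sign changes were all in values that had not been called: Mmp23 with 5azadC (-0.0238 without untreated replicate 2, and otherwise up to 0.161), Timp2 with 5azadC (-0.0684 without untreated replicate 1, -0.0805 without 5azadC replicate 2, and up to 0.19), Mmp9 with VX680 (0.364 without untreated replicate 1, 0.0103 without VX680 replicate 1, and down to -0.732), Mmp9 with both (-0.0242 without untreated replicate 2, -0.585 without 5azadC+VX680 replicate 1, and up to 1.07), Adam5, VX680 against untreated (0.703 without untreated replicate 1, 0.296 without VX680 replicate 2, and down to -2.19) and Adam19 (-0.0568 with 5azadC without untreated replicate 1, and up to 0.0896; 0.002 with VX680 under limma on the deposited signal). Leaving out 1 library gave 23 to 26 falls and 4 to 6 rises with 5azadC, 21 to 29 and 5 to 6 with VX680, 28 to 31 and 5 to 7 with both, 12 to 21 and 3 to 5 for both against 5azadC, and 4 to 14 and 0 to 1 for both against VX680; in the last, no filter on low counts gave 2 rises. Called interactions were the least stable: 2 to 12 positive and 2 to 11 negative. Without 5azadC+VX680 replicate 1, 2 positive and 3 negative ones were left, and those of Adamts17 (3.45, edgeR adjusted p = 0.0653), Adamts10 and Adam12 were lost; fewer libraries entered these fits. Adamts6, Mmp16, Mmp9, Adamtsl4 and Adamtsl3 lost the interaction under 7 to 9 alternatives. Allele calls ranged from 0 to 1, 0 to 0 and 0 to 1: Adam8 without 5azadC replicate 2 (edgeR adjusted p = 0.02) and Adamts14 without 5azadC+VX680 replicate 2 (edgeR adjusted p = 0.0393). The deposited normalization moved the median of all genes by 0.12 with VX680, 0.12 with both and 0.10 for both against 5azadC. Same-numbered libraries share only a number (correlations of replicate differences -0.0622 to 0.0326), and with a replicate block 25 members fell and 6 rose with 5azadC, 28 and 6 with VX680 and 30 and 5 with both; the block ended the calls of Adam1a and Adamts18 with 5azadC of Adam19 with both and of the interaction of Mmp16, and made a call for Adamts5 with VX680. Members with under 20 reads, and folds against groups with 0 to 4 reads, are limited by depth.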
